A study of Arabidopsis thaliana with 11 samples.

Results

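DFR and UF3GT are a pair of genes of the last steps of anthocyanin synthesis, followed here in the shoots of Arabidopsis thaliana seedlings. They were chosen by name, with earlier results of these data known. There was 1 probe set for DFR (AT5G42800, MRT3702_22988C.2_at) and 1 for UF3GT, also called UGT79B1 (AT5G54060, MRT3702_24114C.2_at). The pair makes up 2 genes of the 11320 read under a gene name. Both loci carry the prefix of the fifth chromosome, and each was read by a single probe set. Coordinates are left out because the annotation of the array names no genome build.

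The 11 arrays covered 3 genotypes. CBF4 lines 10 and 19 carried 35S::CBF4, AtNF-YB1 lines 3 and 6 carried 35S::AtNF-YB1 (35s::AtNF-YB in the sample titles), and Col-0 wild type was the reference. There were 2 arrays for each of the 4 independent transgenic lines, those of AtNF-YB1 homozygous, and 3 for wild type. The series text adds the number 23 to CBF4 line 19, which the sample titles do not carry. The 35S promoter of cauliflower mosaic virus is active in most plant tissues, so the transgenes were not limited to the cells that make pigment. Each array was hybridized with RNA from a pool of about 24 seedlings, 14 days old and kept on plates under 24 h of light, and the shoots were taken without the roots.

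Anthocyanins are red to purple pigments that collect in the vacuoles of leaf and stem cells, and in Arabidopsis seedlings they build up under strong light, sugar, cold or lack of nutrients. The enzyme encoded by DFR, dihydroflavonol reductase, reduces dihydroflavonols and so commits the shared flavonoid precursors to the anthocyanin branch. Plants that lack it make no anthocyanin. UF3GT acts near the end: UGT79B1 adds xylose to the glucose that the pigment already carries. Both belong to the late genes of the pathway, which are switched on by complexes of MYB, bHLH and WD40 proteins, whereas flavonol genes act earlier or on another branch.

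Array medians of the deposited intensities ran from 12.9 to 18.1 in CBF4, 9.23 to 18.9 in AtNF-YB1 and 12.8 to 22.7 in wild type. The levels below are therefore log2 intensities after quantile normalization. The ratio of the 3′ to the 5′ probe set of the GAPDH control, a sign of RNA integrity, was 1.31 to 1.80 in CBF4, 1.37 to 2.09 in AtNF-YB1 and 1.43 to 1.67 in wild type. Of 14 genes of green tissue 6 were measured, and their summed intensity was 10360 to 10770 in CBF4, 10380 to 10880 in AtNF-YB1 and 9946 to 10620 in wild type. Of 10 root genes 3 were measured, with sums of 198.5 to 430.4 in CBF4, 299.7 to 434.6 in AtNF-YB1 and 218.0 to 494.1 in wild type, most of it from PYK10. None of the 3 was at the floor on all arrays. One of them, AT4G26010, read 1.46 to 3.74 log2 in CBF4, 4.04 to 4.67 in AtNF-YB1 and 3.75 to 4.95 in wild type, a difference of -1.60 ± 0.55 in the CBF4 lines (adjusted p = 0.639 by limma). Its part, and that of the root marker sums, in the values of DFR and UF3GT was not tested. COR15A, a cold-regulated target of CBF factors, read 1208 to 1517 deposited units in CBF4, 34.8 to 80.8 in AtNF-YB1 and 35.4 to 131.9 in wild type. The array labelled wild type replicate 3 stood apart in the vector probe sets. It gave 52.3 intensity units for the NOS 3′ end, where CBF4 gave 153.6 to 419.6 and AtNF-YB1 284.5 to 704.7, against 0.50 and -0.44 units on wild type replicates 1 and 2. It gave 1164 units for the E9 3′ end, more than any CBF4 array (504.5 to 591.3) or AtNF-YB1 array (2.2 to 112.1), against 137 and 88.3 units on the other wild type arrays. After normalization COR15A was at 5.45 log2 on it, the lowest of the wild type arrays (5.56 on replicate 2). As deposited, replicate 2 was the lowest, at 35.4 units against 52.6 on replicate 3. Other CBF targets did not follow COR15A. COR15B read 6.805 log2 on replicate 3 against 5.42 and 5.47 on replicates 1 and 2, and 5.63 against 4.83 and 4.82 in another probe set. KIN2 read 8.49 against 8.215 and 8.12, so it too was highest on replicate 3. KIN1 (4.82) and COR47 (7.86) lay between the values of replicates 1 and 2. Whether this array holds wild type RNA alone was not tested, and every wild type mean below includes it unless it is said to be left out.

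DFR lay below wild type on all 8 transgenic arrays. The CBF4 lines had 5.92 and 6.43 log2 in line 10 and 6.23 and 5.67 in line 19. The AtNF-YB1 lines had 5.96 and 5.55 log2 in line 3 and 6.02 and 5.64 in line 6. The lowest of these, on line 3 replicate 2, was on the array with the lowest median of all arrays (9.23 units). That array also had the highest 3′ to 5′ ratios of the GAPDH (2.09) and ubiquitin (2.82) controls. The part of these in the low value was not tested. The wild type arrays had 6.70, 6.50 and 6.53. The groups did not overlap, but the gap was narrow: the highest transgenic array, CBF4 line 10 replicate 2, was 0.07 log2 under the lowest wild type array. The 3 wild type arrays lay closer together (SD 0.11) than the arrays of any transgenic line (SD 0.27 to 0.40, n = 2 each). In intensity units as deposited, before any scaling, DFR read 61.8, 91.5, 75.2 and 40.5 on the CBF4 arrays in the order above. It read 72.0, 27.9, 72.4 and 46.8 units on the AtNF-YB1 arrays. The wild type arrays read 140.8, 67.6 and 114.2 units, so without scaling the groups overlapped through wild type replicate 2.

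UF3GT was also below wild type on all 8 transgenic arrays. The CBF4 lines had 4.82 and 4.78 log2 in line 10 and 4.89 and 4.10 in line 19. The AtNF-YB1 lines had 4.56 and 4.48 in line 3 and 4.38 and 4.76 in line 6. The wild type arrays had 5.48, 5.34 and 4.99. The lowest wild type array, the one labelled replicate 3, was 0.10 log2 above the highest transgenic array, CBF4 line 19 replicate 1. As deposited, UF3GT read 29.5, 28.6, 30.9 and 13.3 units on the CBF4 arrays and 26.8, 12.7, 22.7 and 26.0 units on the AtNF-YB1 arrays. The wild type arrays read 60.3, 30.7 and 37.6 units, with wild type replicate 2 just under the highest CBF4 array.

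**Figure D1:**
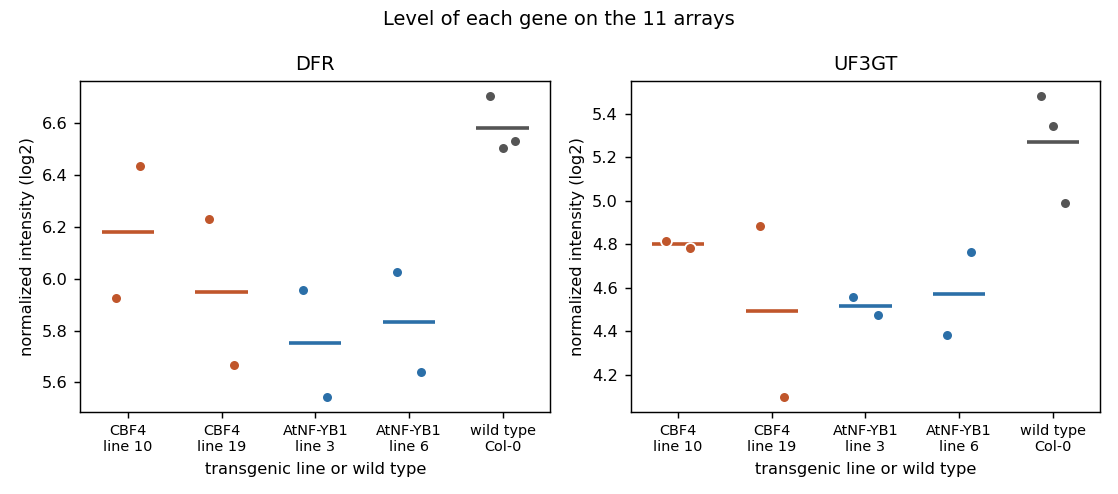
Normalized intensity (log2) of DFR (left) and UF3GT (right) on each array; points are arrays, ordered by replicate number, and bars are line means. All 8 transgenic points lie below the 3 wild type points in both panels, and the 2 arrays of CBF4 line 19 lie far apart for UF3GT (4.89 and 4.10).

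A full separation of the 8 transgenic arrays below the 3 wild type arrays was seen for 86 of 19371 probe sets, or 0.444%, and DFR and UF3GT were among these. All 4 CBF4 arrays lay below all wild type arrays for 2.92% of probe sets, and all 4 AtNF-YB1 arrays for 1.85%. Random order of the arrays gives full separation, in either direction, with probability 0.0121 for 8 against 3 arrays and 0.0571 for 4 against 3. The shares given here count 1 direction only, for which random order gives a lower probability, so they cannot be compared directly. The genes were chosen with earlier results of these data known, so their place among these probe sets adds no support. The separation depended on the scaling. With arrays centred on their medians it held for both genes (0.392% of probe sets), by 0.01 log2 for DFR and 0.17 for UF3GT. With arrays scaled to their 75th percentile (0.398%) DFR was separated and UF3GT overlapped by less than 0.01 log2. On unscaled values (0.217%) neither gene was separated. Without the array labelled wild type replicate 3 both were separated, by 0.07 log2 for DFR and 0.46 for UF3GT, as were 1.84% of all probe sets, since 2 arrays then stood for wild type.

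Setting CBF4 shoots beside wild type shoots asks what is expressed when CBF4 is overproduced. DFR averaged 6.06 ± 0.34 log2 in the CBF4 lines (SD, n = 4) and 6.58 ± 0.11 in wild type (SD, n = 3). The difference was -0.52 ± 0.20 log2 (SE), or 0.70 times the wild type intensity, with a 95% interval of -1.003 to -0.028. UF3GT averaged 4.65 ± 0.37 log2 in the CBF4 lines and 5.27 ± 0.25 in wild type, a difference of -0.62 ± 0.21 with an interval of -1.13 to -0.11, or 0.65 times. The limma p-values were 0.041 for DFR and 0.0235 for UF3GT, and adjusted over all probe sets 0.768 and 0.633. So 0 of the 2 genes were called, where 0.232% of all probe sets were, and 6.13% of all probe sets had an unadjusted p below 0.05. Leaving out the third array labelled wild type gave -0.54 ± 0.25 for DFR and -0.76 ± 0.23 for UF3GT (adjusted p = 0.811 and 0.503). In an array study of pooled shoots, less RNA per cell and fewer cells expressing a gene cannot be told apart.

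The same wild type arrays served for AtNF-YB1 against wild type, so the 2 comparisons are not independent. DFR averaged 5.79 ± 0.24 log2 in the AtNF-YB1 lines (SD, n = 4) against 6.58 ± 0.11 in wild type. The difference of -0.79 ± 0.20 (SE) had an interval of -1.28 to -0.30 and corresponds to 0.58 times the wild type intensity. UF3GT averaged 4.54 ± 0.16 log2 in the AtNF-YB1 lines, against 5.27 ± 0.25 in wild type, a difference of -0.73 ± 0.21 with an interval of -1.24 to -0.22, or 0.60 times. The p-values were 0.00683 and 0.0123 before adjustment and 0.864 and 0.995 after it by limma. Again 0 of the 2 were called, against 0.0155% of all probe sets, and 4.02% of all probe sets had an unadjusted p below 0.05. Leaving out the third array labelled wild type gave -0.81 ± 0.25 for DFR and -0.86 ± 0.23 for UF3GT (adjusted p = 0.960 and 0.867).

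With all 4 transgenic lines set against wild type, the difference was -0.65 ± 0.18 log2 for DFR (interval -1.08 to -0.22, adjusted p = 0.781 by limma) and -0.67 ± 0.19 for UF3GT (interval -1.13 to -0.22, adjusted p = 0.782). Neither was called, and 0.0206% of probe sets were. Leaving out the third array labelled wild type gave values of -0.67 ± 0.23 and -0.81 ± 0.21. Taken one gene at a time, an exact two-sided permutation test of the 8 transgenic against the 3 wild type arrays gave p = 0.0121 for each gene, the smallest p this design allows. For either construct alone, 4 arrays against 3, the same exact test gave p = 0.0571 for each gene, again the smallest p possible and above 0.05. These are 8 tests with the constructs' comparison below, they treat arrays of a line as separate samples, and they are not adjusted for the choice of the genes. Against wild type, the full separation of the arrays already fixes the p-value, so these p-values restate the separation and add no support.

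The constructs were then compared directly, 4 arrays against 4. CBF4 minus AtNF-YB1 was 0.27 ± 0.19 log2 (SE) for DFR, with an interval of -0.18 to 0.72, and 0.10 ± 0.20 for UF3GT, with an interval of -0.37 to 0.57. Adjusted p-values were 0.851 and 0.993 by limma, with 0.310% of probe sets called, and exact permutation p-values were 0.257 and 0.629. The arrays of the 2 constructs overlapped for both genes. Both intervals contain 0, and they also contain differences of up to 0.72 log2 for DFR and 0.57 for UF3GT, so the constructs are not shown to act alike. Single arrays moved both values: DFR was 0.13 log2 without CBF4 line 19 replicate 1 and 0.41 without its replicate 2. It was 0.145 without CBF4 line 10 replicate 2, 0.17 without AtNF-YB1 line 3 replicate 2 and 0.18 without AtNF-YB1 line 6 replicate 2. For UF3GT the sign turned to -0.10 log2 without CBF4 line 19 replicate 1.

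**Figure D2:**
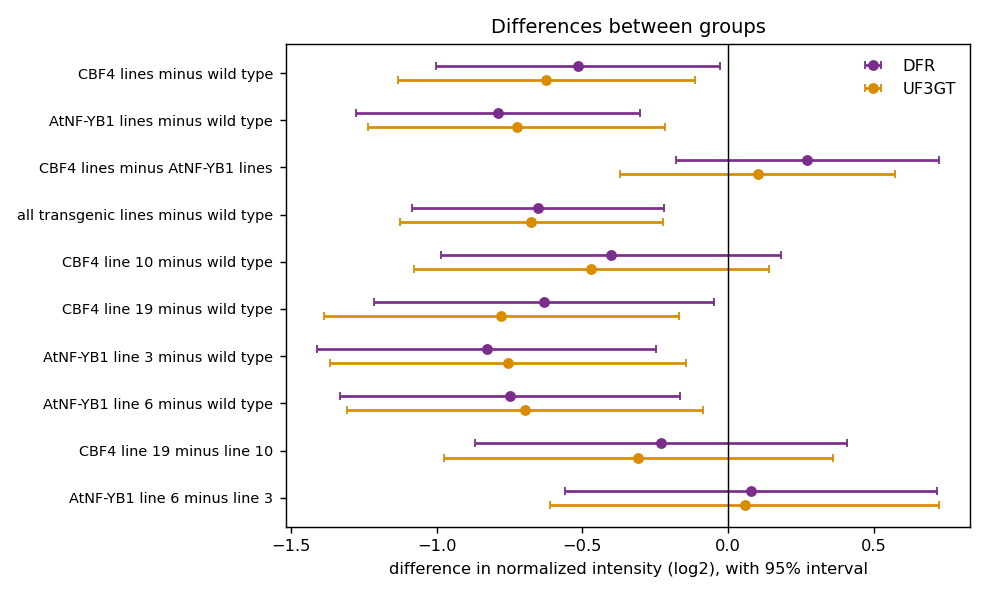
Differences in normalized intensity (log2) of DFR and UF3GT for each comparison, with 95% intervals from the limma fit; values below 0 are lower in the group named first. Every difference from wild type lies left of 0, from -0.40 to -0.83 for single lines, while the intervals of CBF4 line 10 against wild type, of line against line and of construct against construct cross 0.

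Line by line, the estimates against wild type were all negative. For DFR they were -0.40 ± 0.24 log2 (SE) in CBF4 line 10, -0.63 ± 0.24 in CBF4 line 19, -0.83 ± 0.24 in AtNF-YB1 line 3 and -0.75 ± 0.24 in AtNF-YB1 line 6. For UF3GT the same lines gave -0.47, -0.78, -0.75 and -0.70, each ± 0.25. The interval of CBF4 line 10 included 0 for both genes (-0.98 to 0.18 for DFR, -1.08 to 0.14 for UF3GT), and those of the other 3 lines did not. No line passed for either gene, with adjusted p from 0.678 to 1 by limma, and the share of probe sets called was 0.129% in each CBF4 line, 0.0258% in AtNF-YB1 line 3 and 0% in AtNF-YB1 line 6, where limma gave 689 probe sets (3.56%) an unadjusted p below 0.05. Leaving out the third array labelled wild type gave -0.42, -0.65, -0.85 and -0.77 log2 for DFR in the same order of lines, and -0.61, -0.92, -0.89 and -0.83 for UF3GT. Single arrays carried much of the CBF4 line values. Without CBF4 line 19 replicate 2 that line's differences were -0.35 for DFR and -0.38 for UF3GT, and without its replicate 1 they were -0.91 and -1.18. Without CBF4 line 10 replicate 1 its DFR difference was -0.15, and without its replicate 2 it was -0.65.

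From the highest level to the lowest, DFR ran from wild type (6.58 log2) over CBF4 line 10 (6.18), CBF4 line 19 (5.95) and AtNF-YB1 line 6 (5.83) to AtNF-YB1 line 3 (5.75). Only the first pair of neighbours, wild type and CBF4 line 10, did not overlap in their arrays. UF3GT ran from wild type (5.27) over CBF4 line 10 (4.8), AtNF-YB1 line 6 (4.57) and AtNF-YB1 line 3 (4.52) to CBF4 line 19 (4.49). Here wild type and CBF4 line 10, and CBF4 line 10 and AtNF-YB1 line 6, did not overlap, and the other neighbours did. So both genes had wild type first and CBF4 line 10 next, and the order of the other 3 lines differed by no more than the spread between arrays. Lines of a construct did not pass against each other: CBF4 line 19 minus line 10 was -0.23 ± 0.27 log2 for DFR and -0.31 ± 0.28 for UF3GT, and AtNF-YB1 line 6 minus line 3 was 0.08 ± 0.27 and 0.06 ± 0.28 (adjusted p = 1 for all 4, with 0.0155% and 0.0258% of probe sets called).

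DFR and UF3GT varied together over the 11 arrays mainly through the distance of wild type from the transgenic lines. The Pearson correlation of their log2 levels was 0.792 over all 11 arrays, a description of arrays that share lines and fall into a wild type and a transgenic cluster, and 0.794 without the array labelled wild type replicate 3. Within the 8 transgenic arrays r was 0.498 (exact permutation p = 0.194) and Spearman's rho 0.429 (exact permutation p = 0.299). Without the 2 arrays farthest from the DFR median, AtNF-YB1 line 3 replicate 2 and CBF4 line 10 replicate 2, r was 0.426 (exact permutation p = 0.375). On unscaled values r over all 8 transgenic arrays was 0.841 (exact permutation p = 0.0223), so the call within the transgenic arrays depended on the scaling. There the arrays differ in median intensity, which can move both genes together. The permutation also takes the arrays of a line as exchangeable with the others, so no conclusion is drawn from this value. Between the 2 arrays of a line, the genes moved the same way in 2 of 4 lines: CBF4 line 19 replicate 2 and AtNF-YB1 line 3 replicate 2 were the lower array of their line for both genes. In CBF4 line 10 and AtNF-YB1 line 6 the array with more DFR had less UF3GT.

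**Figure D3:**
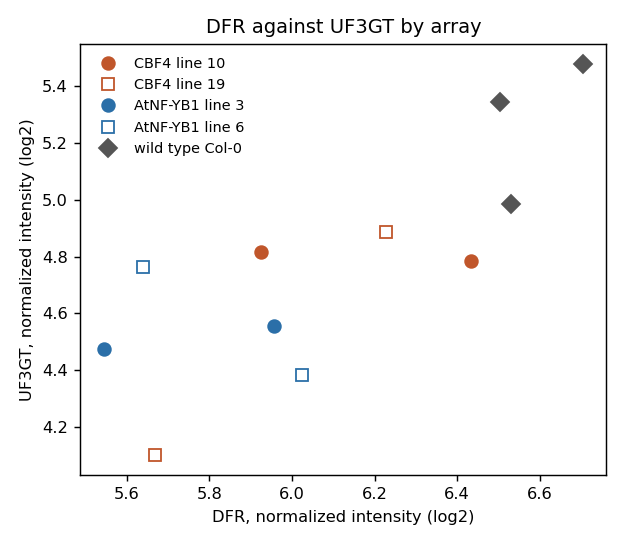
UF3GT against DFR, both as normalized intensity (log2), 1 point per array. The 3 wild type arrays occupy the upper right corner, and the 8 transgenic arrays scatter below and to the left of them with r = 0.498 among themselves.

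Of 77 loci listed for the phenylpropanoid and flavonoid pathway, its regulators and close relatives of the 2 enzymes, 15 were read under a gene name and 13 of these were above the floor on at least 1 array. None of the 15 was called in any of the 4 comparisons. Over the 11 besides DFR and UF3GT the median difference was 0.03 log2 in the CBF4 lines and -0.13 in the AtNF-YB1 lines, beside 0 for all probe sets. In the CBF4 lines 3 of these 11 were below and 8 above wild type. In the AtNF-YB1 lines 11 of 11 were below wild type, several of them by less than their standard error, where 49.9% of all probe sets above the floor on at least 1 array were below. These counts rested on the array labelled wild type replicate 3. Without it 7 were below and 4 above in the CBF4 lines (median -0.02 log2), 8 were below and 3 above in the AtNF-YB1 lines (median -0.19), and still 0 of the 15 were called.

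Of the 11 late anthocyanin loci 4 were read. The third was UGT78D2, which puts glucose on anthocyanidins and flavonols and so provides the sugar that UGT79B1 extends. Its levels were 7.10 to 7.50 log2 in CBF4, 6.996 to 7.27 in AtNF-YB1 and 7.14 to 7.37 in wild type, with differences of 0.03 ± 0.11 in the CBF4 lines and -0.13 ± 0.11 in the AtNF-YB1 lines. Its groups overlapped. The fourth, AT1G03495, was dimmer, at -0.21 ± 0.32 log2 in the CBF4 lines and -0.07 ± 0.32 in the AtNF-YB1 lines, and at -0.44 ± 0.34 and -0.30 ± 0.34 without the array labelled wild type replicate 3.

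Of the 10 early flavonoid loci only CHIL was read, a protein related to chalcone isomerase that assists chalcone synthase. It lay at 7.93 to 8.20 log2 in CBF4, 7.80 to 8.24 in AtNF-YB1 and 8.09 to 8.21 in wild type. Its differences were 0.00 ± 0.09 in the CBF4 lines and -0.11 ± 0.09 in the AtNF-YB1 lines. Of the 4 loci for glycosylation of flavonols 3 were read. UGT78D1, which puts rhamnose on flavonols, was at -0.24 ± 0.12 log2 from wild type in the CBF4 lines (adjusted p = 0.904 by limma) and -0.10 ± 0.12 in the AtNF-YB1 lines. Without the array labelled wild type replicate 3 UGT78D1 was at -0.37 ± 0.09 in the CBF4 lines (adjusted p = 0.361) and -0.22 ± 0.09 in the AtNF-YB1 lines. AT1G06000 was at 0.02 ± 0.08 in the CBF4 lines and -0.31 ± 0.08 in the AtNF-YB1 lines (adjusted p = 0.944), and UGT78D3, for flavonol arabinosides, was at the floor on all 11 arrays.

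BAN encodes anthocyanidin reductase, which draws anthocyanidins into the tannins of the seed coat. It was the only one of 7 loci of that branch read, and it was at the floor on 5 of 11 arrays, with differences of -0.52 ± 0.51 log2 in the CBF4 lines and -0.29 ± 0.51 in the AtNF-YB1 lines. Without the array labelled wild type replicate 3 these were -0.14 ± 0.52 and 0.09 ± 0.52. CCR2, a cinnamoyl-CoA reductase of the same protein family as DFR, was at the floor on 4 arrays, with 0.46 ± 0.49 and -0.14 ± 0.49. Of 8 loci listed as relatives of UF3GT 5 were read, by locus only except AT5G54010, which RefSeq names UGT79B6. AT4G27560 was the only one above the floor on every array, at 0.18 ± 0.09 log2 in the CBF4 lines and -0.11 ± 0.09 in the AtNF-YB1 lines. AT1G50580 was at the floor on all 11 arrays, and AT5G54010 on 6. No locus of the general phenylpropanoid enzymes (0 of 9), the activators (0 of 13) or the repressors (0 of 10) was read under a name, so the MYB and bHLH factors that switch on DFR were not analysed here.

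**Figure D4:**
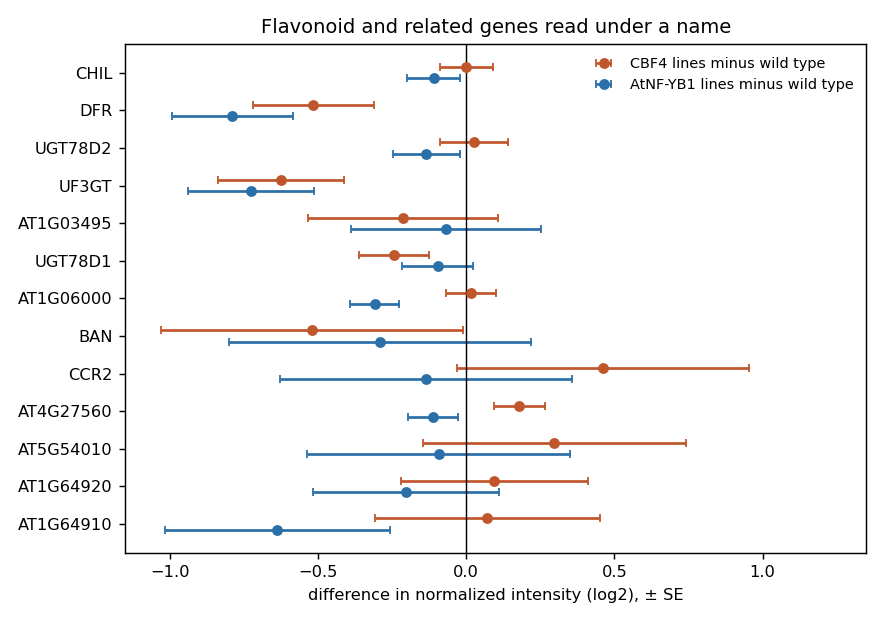
Differences from wild type (log2, ± SE) of the 13 flavonoid and related genes above the floor on at least 1 array, for the CBF4 and the AtNF-YB1 lines. DFR and UF3GT lie left of 0 by at least 0.52 in both, whereas CHIL and UGT78D2 lie within 0.14 of 0; BAN, CCR2, AT5G54010, AT1G64920 and AT1G64910 are near the floor.

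The genes whose levels were most like those of both DFR and UF3GT were sought among 5152 named probe sets no dimmer than the median probe set, by the smaller of the 2 Pearson correlations over the 11 arrays. The 6 closest were AT3G24670 (r = 0.732 with DFR and 0.791 with UF3GT), AT3G62790 (0.824 and 0.732), AT4G39870 (0.711 and 0.740), AT2G44060 (0.696 and 0.740), AT3G26630 (0.770 and 0.686) and FAMT (0.668 and 0.786). RefSeq lists AT2G44060 as a late embryogenesis abundant protein and FAMT as a farnesoic acid methyltransferase. The arrays share lines and wild type, and these are the highest of many values, so they are a description. Against the r of 0.792 of DFR with UF3GT, 3 named probe sets were closer to DFR than UF3GT was, and 1 was closer to UF3GT than DFR was. This rank is a description too, since the pair was chosen with earlier results known. Its r was 0.498 within the 8 transgenic arrays. Picking by r over these arrays favours probe sets that, like DFR and UF3GT, are higher in wild type. Differences of the picked genes from wild type therefore follow in part from the choice and add no support. AT3G24670 was -0.47 ± 0.09 log2 from wild type in the CBF4 lines and -0.44 ± 0.09 in the AtNF-YB1 lines (adjusted p = 0.211 and 0.562 by limma). FAMT was -0.46 ± 0.40 and -1.11 ± 0.40 (adjusted p = 1 for both). Leaving out the third array labelled wild type gave -0.42 and -0.40 for AT3G24670 and -0.74 and -1.38 for FAMT.

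Across 22 alternatives of scaling, floor, filter, model and left-out arrays, the differences of DFR and UF3GT from wild type kept their sign for both constructs, and none passed. In the CBF4 lines DFR ran from -0.67 to -0.37 log2 and UF3GT from -0.82 to -0.43. In the AtNF-YB1 lines they ran from -1.01 to -0.68 and from -0.96 to -0.62. The comparisons share the wild type arrays, so their agreement in sign adds no independent evidence.

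**Figure D5:**
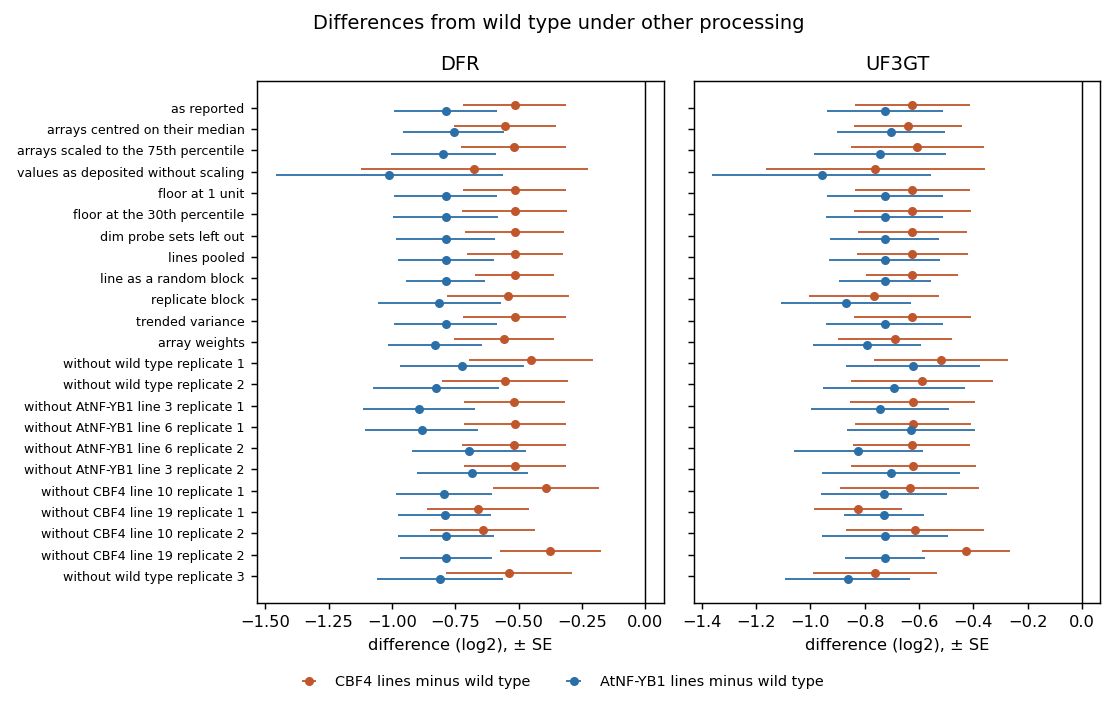
Differences from wild type (log2, ± SE) of DFR and UF3GT in the CBF4 and the AtNF-YB1 lines as reported (top) and under each of 22 alternatives. All points lie left of 0; those on unscaled values have the widest errors, and the CBF4 values nearest 0 are those without CBF4 line 19 replicate 2 (-0.37 for DFR and -0.43 for UF3GT).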

How the data were processed

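The data were 11 single-channel Affymetrix arrays of a custom Arabidopsis design. Per the labels' protocols, total RNA (RNeasy) went through MessageAmp amplification and carried a biotin label. The authors deposited 1 linear intensity per probe set and array, 13.4% of them below 0. How these were summarized or scaled is not stated in the labels or the file header. Titles gave the groups. Replicates are biological by the series description, and p-values measure the spread between pools.

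Of 19658 probe sets, 284 controls and 3 vector probe sets were left out, and 19371 were quantile normalized, raised to a floor at the 20th percentile (1.90 units) and put on the log2 scale. Gene names came from the platform annotation: 11598 probe sets had 1 name, 0 had several and 7773 had none, and 11547 matched RefSeq TAIR10.1 by gene ID. A single limma fit of 5 line groups (6 residual degrees of freedom) gave two-sided tests, Benjamini-Hochberg adjusted over 19371 probe sets at a threshold of 0.05. A construct is the mean of its 2 lines. The procedure was tested on simulated data for CBF4 against wild type. It called 59 of 100 changes of 1 log2 and 96 of 100 changes of 2 log2, and 18 of its 173 calls were false. Changes as small as those of DFR and UF3GT were not simulated. The genes and pathway lists were chosen with earlier results of these data known. Named were DFR, UF3GT, list members read under a name, the 6 probe sets most alike, COR15A, COR15B, KIN1, KIN2, COR47, PYK10 and AT4G26010. Those listed after COR15A were picked after their values were seen. Alternatives were other scalings, floors, a filter on dim probe sets, pooled lines, line as random block, a replicate block, trended variance, array weights and each array left out. Fits ran in limma 3.58.1 with statmod 1.5.0 under R 4.3.3, permutations in SciPy 1.17.1 and plots in matplotlib 3.10.9 under Python 3.11.15.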

Additional observations from a re-analysis of the deposited data

Results flagged for a closer look

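UF3GT on CBF4 line 19 replicate 2 stood apart from the other CBF4 arrays. It read 4.10 log2 there, against 4.78 to 4.89 on the other 3 arrays of the construct. Its distance to the nearest of them was 0.872 of the whole range of the 4 arrays, above Dixon's critical ratio of 0.829, which chance passes for about 1 group in 20. DFR was lowest on the same array among the CBF4 arrays, at 5.67 log2, with a ratio of 0.334. Of 12 ratios computed for the 2 genes this one alone was past its limit. The array had a median intensity of 12.9 units as deposited, the lowest of the CBF4 arrays (17.5 to 18.1 on the other 3), and a GAPDH 3′ to 5′ ratio of 1.64, within the range of the others (1.31 to 1.80). The part of these in the low value was not tested.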

How the results depend on the processing

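The 20 differences of DFR and UF3GT were recomputed 416 times in all. None passed (lowest adjusted p = 0.181), and 7 values changed sign, each on leaving out 1 array. UF3GT in CBF4 minus AtNF-YB1 ran from -0.10 to 0.30 over the left-out arrays. CBF4 line 19 minus line 10 ran from -0.51 to 0.05 for DFR, where 0.02 and 0.0506 were the values without CBF4 line 10 replicate 2 and line 19 replicate 2, and from -0.70 to 0.0852 for UF3GT, the last without line 19 replicate 2. AtNF-YB1 line 6 minus line 3 ran from -0.12 to 0.29 for DFR (-0.11 and -0.12 without line 6 replicate 1 and line 3 replicate 2) and from -0.13 to 0.25 for UF3GT. The cause was not tested, and pooling lines or taking line as a random block gives no value per line. A line with an array left out rests on 1 array, assumed to vary like the others. The correlation of DFR with UF3GT over 11 arrays was 0.385 for deviations from line means (permutation p = 0.242), and over the 8 transgenic arrays 0.841 on unscaled values (exact permutation p = 0.0223). The permutation of deviations treats them as exchangeable, although they cancel within each line, so no conclusion is drawn from its p-value. The unscaled value includes differences in array brightness, and no conclusion is drawn from it either. Replicate numbers share no stated batch, and deviations of same-numbered arrays correlated at -0.25 to 0.174. With a replicate block DFR and UF3GT were -0.54 and -0.77 log2 in the CBF4 lines and -0.81 and -0.87 in the AtNF-YB1 lines. Only wild type has a replicate 3, so the block fits that array exactly. Its differences from wild type therefore repeat those with that array left out, up to the normalization, and are no separate check. The block left 12, 0, 21 and 3 calls over all probe sets, against 45, 3, 60 and 4 without it. The order is CBF4 and AtNF-YB1 against wild type, CBF4 against AtNF-YB1 and all lines against wild type. Over the other alternatives and left-out arrays these counts of calls ran from 5 to 130, 0 to 165, 9 to 239 and 1 to 145. The number of arrays limits precision, with SEs near 0.2 log2.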
